A study of Mus musculus with 18 samples.

Results

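This report follows 8 genes from families with proteins known to aggregate in human neurodegenerative disease, measured in the striatum of a mouse model of Huntington's disease. They are the synucleins Sncb and Sncg, the microtubule-binding protein tau (Mapt), the membrane proteins App and Prnp, the RNA-binding protein TDP-43 (Tardbp) and the ataxins Atxn1 and Atxn3. They were picked by name from the 55421 genes of the count table, through the gene symbol of their identifiers, and all 8 passed the filter on low counts that left 20914 genes for testing. Total RNA was sequenced from 18 mice on C57BL/6, aged 12 to 14 months, with 1 library per mouse. WT mice (n = 5) carried neither change. zQ175 mice (n = 5) carried 1 zQ175 allele, in which the mouse huntingtin gene holds a human first exon with an expanded CAG repeat, so that every cell expressing the gene makes the mutant protein. CK2a'(+/-) mice (n = 3) had lost 1 allele of Csnk2a2, the gene of the catalytic subunit CK2α' of protein kinase CK2, in the whole animal. zQ175:CK2a'(+/-) mice (n = 5) carried both.

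Huntington's disease is caused by a polyglutamine stretch in huntingtin that misfolds and forms inclusions, and the striatal projection neurons are the cells hit first. Proteins of the families studied here form deposits in other diseases, which does not mean that each member does. Synucleins are small membrane-binding proteins of synapses, tau stabilizes axonal microtubules and makes up neurofibrillary tangles, and App is the precursor of the amyloid peptide. Prnp encodes the prion protein, TDP-43 binds RNA and leaves the nucleus in motor neuron disease, and the ataxins carry polyglutamine stretches of their own in people. Protein kinase CK2 phosphorylates many substrates, several aggregation-prone proteins among them. The counts describe messenger RNA and say nothing of protein, phosphorylation or deposits.

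The label of the kinase allele held in every library. Csnk2a2 stood at 31.6 ± 2.26 CPM (the gene's count scaled to the size of its library; SD, n = 5) in WT, 35.0 ± 2.29 (n = 5) in zQ175, 16.7 ± 1.78 (n = 3) in CK2a'(+/-) and 17.6 ± 1.64 (n = 5) in zQ175:CK2a'(+/-), and the highest library with the lost allele (19.9) lay below the lowest without it (29.3). Libraries held 13612381 to 22702547 counts with a median of 18005044. All 12 markers of striatal projection neurons, Drd1, Drd2 and Ppp1r1b among them, were detected in all 18 libraries, and their summed level ran from 3160 to 7628 CPM in WT, 1767 to 3500 in zQ175, 5451 to 7575 in CK2a'(+/-) and 2894 to 4067 in zQ175:CK2a'(+/-). The zQ175 replicate 1 library stood apart, with the lowest striatal sum (1767 CPM), a sum of 6 thalamic markers of 1002 CPM against 34.5 to 436 in the others and a sum of 4 dopaminergic markers of 52.2 CPM against 5.00 to 15.9. Choroid plexus markers summed to between 976 and 3085 CPM in 4 libraries (WT replicates 1 and 3, CK2a'(+/-) replicate 1 and zQ175:CK2a'(+/-) replicate 2) and to 11.5 to 21.7 CPM in the rest. Xist read 5.56 on the log2 CPM scale in zQ175 replicate 3 and either at most 3.05 or at least 9.95 in the others. It was at least 9.95 in 4 of 5 WT, 2 of 5 zQ175, 1 of 3 CK2a'(+/-) and 4 of 5 zQ175:CK2a'(+/-) libraries. Both sexes were used in unequal numbers per group by the study's account, so sex and genotype are partly confounded. The main fits hold no term for sex, and fits with the Xist level as a covariate are named where given. For Sncb, Sncg, Prnp and Atxn1, estimates are also given without the libraries that held an extreme value.

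The members' own coding sequences show how far their reads can be told apart and which of them carry a repeat in the mouse. Sequences are from the GENCODE M21 transcripts on GRCm38, written 5′ to 3′. Sncb and Sncg are paralogues, and 72 of their first 90 coding bases are identical (80.0%), shown in capitals.
Sncb: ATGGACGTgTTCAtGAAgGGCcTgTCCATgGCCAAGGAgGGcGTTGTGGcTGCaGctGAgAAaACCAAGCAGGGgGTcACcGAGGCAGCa
Sncg: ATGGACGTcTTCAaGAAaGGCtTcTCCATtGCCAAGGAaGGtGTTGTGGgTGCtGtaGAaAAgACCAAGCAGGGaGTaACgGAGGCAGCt
Over the whole coding sequences, 254 of 364 aligned bases were identical (69.8%), and the longest run without a difference was 16 bases, well under the 50-base reads. None of the 2092 distinct 50-base windows of the Sncb transcripts and none of the 803 of Sncg occurred in a transcript of another gene, and the same was true of the 7893 windows of Mapt and the 5497 of Atxn3. Windows shared with other genes made up 21.0% of Tardbp (mainly Masp2), 7.06% of Prnp (19 genes, mainly Prn), 2.34% of Atxn1 (Gmpr) and 0.736% of App (11 genes, mainly Gm49227).

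In the ataxins, the stretch of glutamine codons is what expands in human disease. The longest in-frame run of CAG or CAA codons was sought anywhere in the mouse coding sequence and is in capitals below. It had 3 codons in Atxn1 and 6 in Atxn3, starting at codons 444 and 292. Whether these runs lie at the place of the human repeat was not examined.
Atxn1: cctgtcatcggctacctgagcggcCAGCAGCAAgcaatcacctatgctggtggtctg
Atxn3: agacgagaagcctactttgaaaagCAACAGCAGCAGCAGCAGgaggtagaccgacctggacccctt
No other member had a run above 2 glutamine codons. Prnp carries a tandem repeat of another kind, which encodes the octapeptide repeats of the prion protein. Its 5 units of 24 bases span coding bases 151 to 270, and 102 of the 120 bases match the most common base at their place in the unit, shown in capitals.
Prnp: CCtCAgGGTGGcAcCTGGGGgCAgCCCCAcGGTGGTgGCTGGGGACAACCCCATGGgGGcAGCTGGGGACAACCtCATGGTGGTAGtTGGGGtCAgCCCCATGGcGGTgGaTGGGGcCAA

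Some members share exon bases with other genes, which had fewer counts than the members. Tardbp shares 1817 exon bases with Masp2 on the opposite strand, and Masp2 had 4 to 25 counts per library beside 1787 to 3302 for Tardbp. Atxn1 shares 375 exon bases with Gmpr on the opposite strand (206 to 511 counts beside 3328 to 5580), App shares 113 with Gm49227 (32 to 110 beside 17417 to 32471), and Prnp shares 145 on its own strand with Prn (0 to 2 beside 1800 to 4004). Whether strand was used in counting is not given in the sources used here, so reads of these opposite-strand pairs cannot be told apart. A low count of the other gene does not show how many reads in the shared bases were left uncounted.

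Divided by exon length, the members covered a wide range of levels in the striatum. In WT mice App was highest at 108 ± 1.93 CPM per kb (SD, n = 5), followed by Prnp at 67.9 ± 6.00, Sncb at 64.2 ± 10.6 and Mapt at 42.2 ± 3.28. Tardbp (17.3 ± 1.19) and Atxn1 (16.96 ± 3.22) came next, and Sncg (6.44 ± 3.21) and Atxn3 (5.78 ± 0.974) were lowest. The ranges of Prnp and Sncb, of Tardbp and Atxn1, and of Sncg and Atxn3 overlapped, so the order within these pairs was not resolved, whereas the other 4 of the 7 neighbours in the order were separate in WT. The same 4 steps, App first, then the pair of Prnp and Sncb, then Mapt, then Tardbp with Atxn1 and Sncg with Atxn3, were present in the mean levels of each of the other 3 genotypes. In zQ175 the App range (96.4 to 108 CPM per kb) met that of Sncb (54.9 to 98.9), through the zQ175 replicate 1 library.

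**Figure D1:**
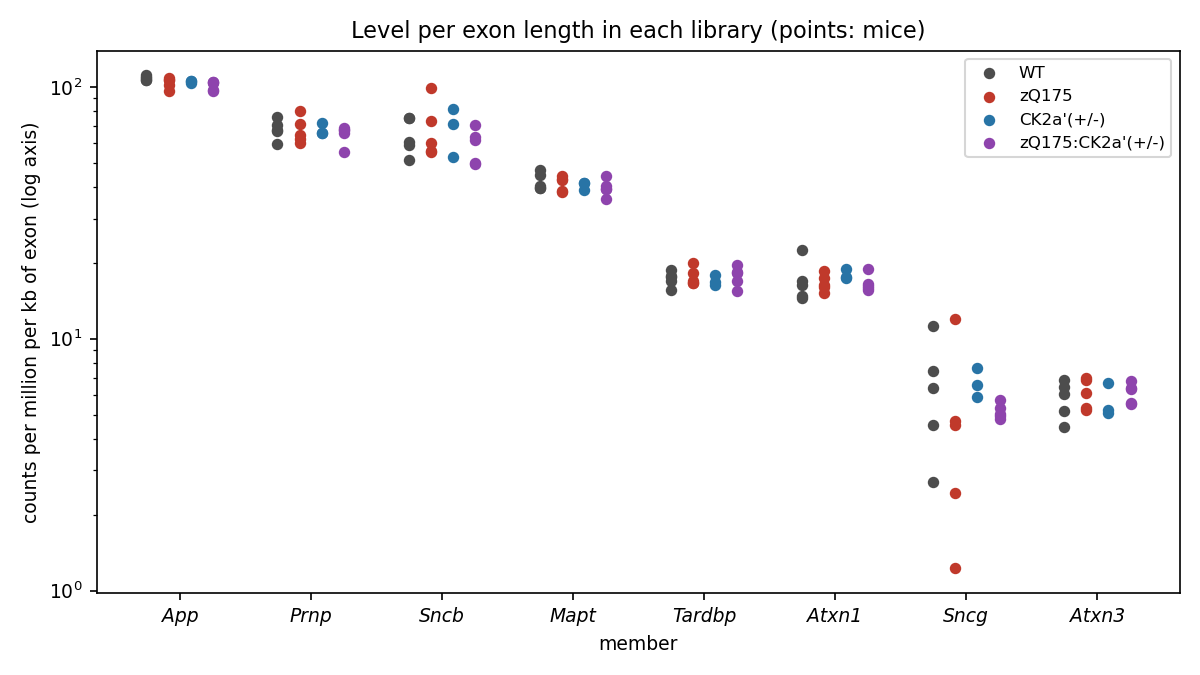
Level of each member in each library, in CPM per kb of exon on a log axis, coloured by genotype, with 1 point per mouse and the members in the order of their WT means. App sits near 100 in all genotypes, the points of Sncg spread from 1.23 to 11.9, and no member separates the genotypes at this scale.

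None of the 8 members passed the test in any of the 7 comparisons. In edgeR's quasi-likelihood test, 0 of 8 members had an adjusted p under 0.1 in zQ175 against WT, where 1.10% of all genes tested did. The count was 0 of 8 in zQ175:CK2a'(+/-) against WT, in CK2a'(+/-) against WT and in zQ175 against zQ175:CK2a'(+/-), where 0.0143% did in each, and 0 of 8 in zQ175:CK2a'(+/-) against CK2a'(+/-), where 0.593% did. The interaction of the alleles gave 0 of 8 (0.00478% of all genes), and the zQ175 effect averaged over the kinase genotype gave 0 of 8 where 4.90% of all genes passed. These shares depended on single libraries: the 230 genes of zQ175 against WT became 0 without WT replicate 3 or zQ175 replicate 5 and 587 without WT replicate 2. The 1024 of the averaged effect ran from 348 without CK2a'(+/-) replicate 3 to 1161 without WT replicate 2, and the 124 of zQ175:CK2a'(+/-) against CK2a'(+/-) from 6 without CK2a'(+/-) replicate 2 to 221 without WT replicate 2. In each of the 7 comparisons 0 members had an unadjusted p under 0.05 in edgeR, and DESeq2 gave 0 at that level and 0 after adjustment. DESeq2 called 5.15%, 0.722%, 0.0293%, 0.146% and 1.63% of all genes with an adjusted p in the 5 comparisons between genotypes, in the order given, 0.0747% for the interaction and 8.78% for the averaged effect. Between zQ175 and WT and between zQ175 and zQ175:CK2a'(+/-) the ranges of all 8 members overlapped, where 2.44% and 1.14% of all genes tested did not.

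The size of the changes that the data allow differed much between members. In zQ175 against WT the median size of the members' log2 fold changes was 0.04, beside 0.19 over all genes tested, with 3 members higher and 5 lower. The 95% interval of App ran from -11.7% to 4.38%, and that of Mapt from -11.6% to 8.96%. For Sncg it ran from -56.4% to 40.6%, so a change of that size in Sncg was not detectable with these mice.

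**Figure D2:**
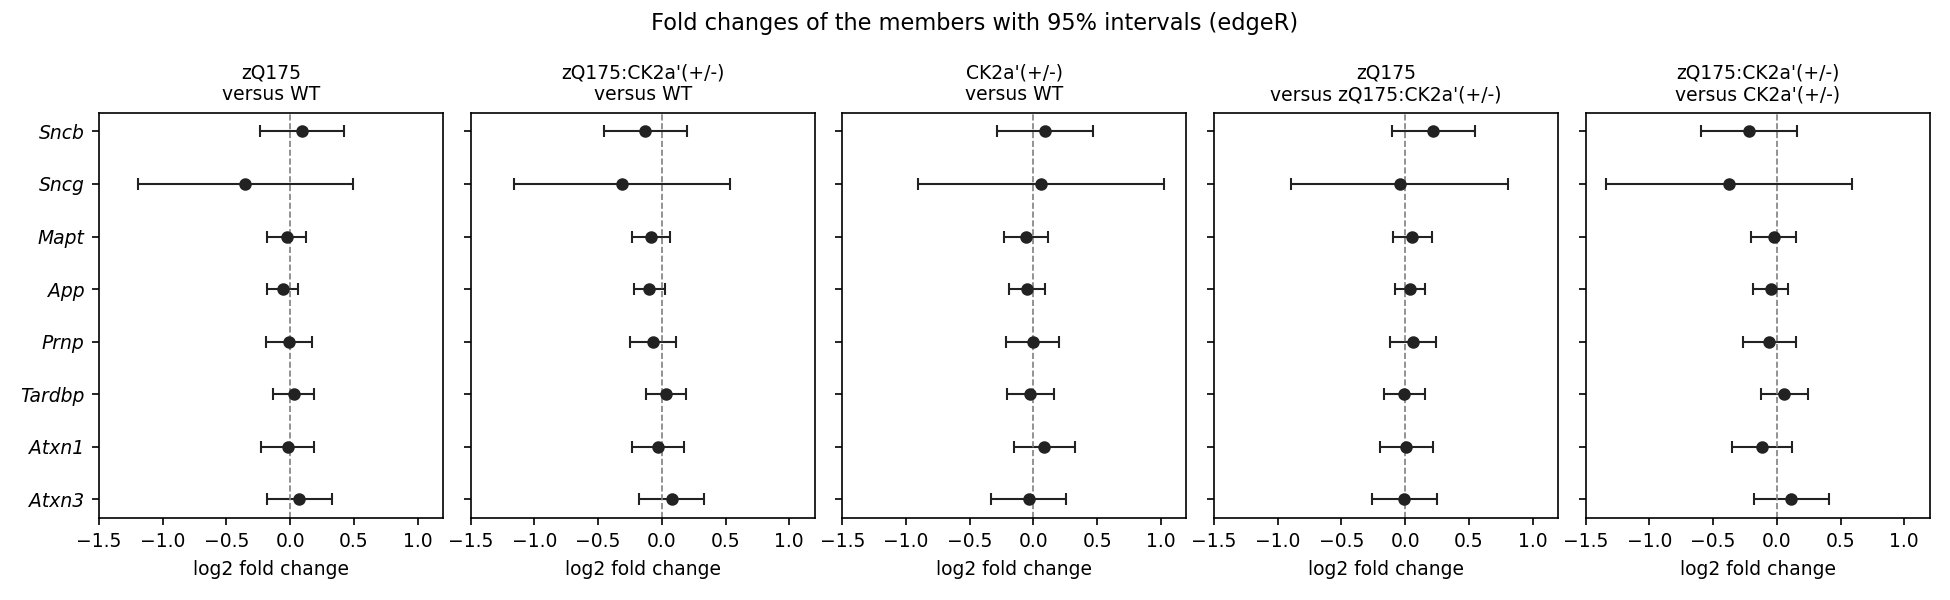
Log2 fold change of each member in the 5 comparisons between genotypes, with points for the edgeR estimate and bars for its 95% interval; the dashed line marks no change. All 40 intervals include 0, the narrowest belong to App and the widest to Sncg.

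Sncb, the gene of β-synuclein, which sits at presynaptic terminals, varied between mice of a genotype more than it did between genotypes. It read 130.1, 110.1, 161, 126 and 161.5 CPM in the WT libraries, 212, 118, 156, 119 and 129 in zQ175, 152.5, 175 and 113 in CK2a'(+/-), and 131, 106, 135, 106 and 151 in zQ175:CK2a'(+/-). The genotypes overlapped, and the highest value was that of zQ175 replicate 1. Its log2 fold change in zQ175 against WT was 0.09 ± 0.16 (SE; edgeR adjusted p = 0.845), and without that library it was -0.08 (adjusted p = 0.861). Between zQ175 and zQ175:CK2a'(+/-) the difference of Sncb was 0.22 ± 0.16 on the log2 scale with a 95% interval from -7.14% to 46.4% (adjusted p = 0.878), and 0.05 without zQ175 replicate 1 (adjusted p = 0.984). Between zQ175:CK2a'(+/-) and CK2a'(+/-), a comparison without that group, it was -0.22 ± 0.18 (adjusted p = 0.789).

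Sncg, the gene of γ-synuclein, was the most variable member. Its counts were low, from 17 to 217 per library. It read 6.33, 2.29, 9.53, 3.86 and 5.42 CPM in WT, 10.2, 2.09, 1.04, 4.02 and 3.87 in zQ175, 6.51, 5.56 and 5.00 in CK2a'(+/-), and 4.22, 4.52, 4.29, 4.88 and 4.09 in zQ175:CK2a'(+/-). WT and zQ175 libraries spread over 4.16-fold and 9.73-fold ranges, whereas the 3 CK2a'(+/-) and 5 zQ175:CK2a'(+/-) libraries were tight and did not overlap with each other. Sncg was the 1 of 8 members without overlap in that comparison, where 8.34% of all genes tested did not overlap. The exact two-sided permutation test gave p = 0.0357, the smallest that 5 against 3 mice allow, before any correction for the 40 such tests run on the members. The edgeR difference was -0.37 ± 0.46 on the log2 scale (adjusted p = 0.883).

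The Sncg extremes fell in libraries that stood apart in other genes. The highest value, in zQ175 replicate 1, came with the thalamic and dopaminergic marker sums given above, and the lowest, in zQ175 replicate 3, with the intermediate Xist level. The log2 fold change in zQ175 against WT was -0.35 ± 0.41 (adjusted p = 0.752), -0.99 without replicate 1 (adjusted p = 0.242) and -0.12 without replicate 3 (adjusted p = 0.923). The part of these libraries' makeup in the Sncg values was not tested.

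Among 13 genes linked to synuclein biology, 1 fell in zQ175 against WT and none rose. This was Park7, which encodes the redox-sensitive chaperone DJ-1, mutated in familial parkinsonism. Park7 read 70.6, 51.2, 75.3, 73.7 and 76.9 CPM in WT and 51.4, 55.7, 43.7, 54.1 and 49.7 in zQ175. In the mice with 1 Csnk2a2 allele it read 48.6, 55.3 and 64.8 CPM in CK2a'(+/-) and 57.1, 59.2, 49.6, 58.5 and 47.2 in zQ175:CK2a'(+/-), so that these groups too lay below the same 4 WT libraries. Of the WT libraries, 4 lay above all zQ175 libraries, and WT replicate 2 lay among them. The WT and zQ175 libraries split the same way in other measures. The log2 of the summed CPM of ribosomal protein genes was 12.40 to 12.50 in WT replicates 1, 3, 4 and 5, 12.08 in WT replicate 2 and 11.81 to 12.12 in zQ175. The short-gene contrast, the median log2 CPM deviation of genes with exons under 2 kb minus that of genes over 10 kb, was 0.13 to 0.24 in those 4, -0.05 in WT replicate 2 and -0.14 to 0.04 in zQ175. With 1 Csnk2a2 allele, CK2a'(+/-) replicate 3 (Park7 at 64.8 CPM) had a ribosomal sum of 12.58 and a contrast of 0.22. The other libraries with 1 such allele had sums of 11.93 to 12.18 and contrasts of -0.06 to 0.08. For Park7 the log2 fold change was -0.45 ± 0.11 (edgeR adjusted p = 0.0772) in zQ175 against WT. It did not pass in zQ175:CK2a'(+/-) against WT (-0.36 ± 0.11, adjusted p = 0.331), in CK2a'(+/-) against WT (-0.31 ± 0.13, adjusted p = 0.999) or in the averaged zQ175 effect (-0.25 ± 0.08, adjusted p = 0.120). In the same comparison 5 of 8 oligodendrocyte markers fell (median log2 fold change -0.56), with sums of 5502 to 7593 CPM in WT and 3585 to 5389 in zQ175. The part of these measures in the Park7 result was not tested. In bulk tissue fewer cells of a type and less RNA per cell cannot be told apart. Leaving out any of WT replicates 1, 3, 4 or 5 or zQ175 replicates 1, 3 or 5 ended the call (adjusted p = 0.108 to 0.195), and the fold change stayed between -0.55 and -0.41 over all 18 libraries left out in turn. It was also lost with only the groups compared (adjusted p = 0.173) and with the cortical projection neuron marker sum as a covariate (-0.36, adjusted p = 0.538).

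In the averaged zQ175 effect, the only gene of this list to pass was Plk2, a polo-like kinase that phosphorylates synucleins. Plk2 stood at 162.5 ± 49.2 CPM (SD, n = 5) in WT and 125 ± 32.4 (n = 5) in zQ175, and at 197 ± 30.5 (n = 3) in CK2a'(+/-) and 129.9 ± 13.2 (n = 5) in zQ175:CK2a'(+/-). The averaged log2 fold change was -0.49 ± 0.14 (adjusted p = 0.0622). The striatal marker sum was lower in the same groups, and in zQ175 replicate 1 both Plk2 (76.4 CPM) and that sum were at their lowest. The part of the marker sum in the Plk2 result was not tested. With the cortical marker sum as a covariate (-0.40, adjusted p = 0.228) or a robust fit (-0.49, adjusted p = 0.117) the call was lost. It was also lost without WT replicate 3, CK2a'(+/-) replicate 3 or zQ175:CK2a'(+/-) replicate 5 (adjusted p = 0.101 to 0.211).

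Mapt, on chromosome 11 (GRCm38, 104231390 to 104332090, plus strand), held within a narrow band. It read between 298 and 353 CPM in WT, 289 and 333.5 in zQ175, 293 and 312 in CK2a'(+/-), and 269 and 332 in zQ175:CK2a'(+/-). The genotypes overlapped throughout. Its spread within genotypes, 0.10 on the log2 CPM scale, was below that of all but 3.57% of the genes tested. The log2 fold change was -0.03 ± 0.07 in zQ175 against WT (adjusted p = 0.906) and -0.08 ± 0.07 in zQ175:CK2a'(+/-) against WT (adjusted p = 0.793).

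None of the 20 kinases and phosphatases of tau passed in zQ175 against WT, with 2 at an unadjusted p under 0.05 and 0 called by DESeq2. The smallest p was that of Mark3, a kinase of the microtubule-binding repeats, at a log2 fold change of 0.17 ± 0.07 (adjusted p = 0.287). In the averaged zQ175 effect 1 of 20 fell, Ppp3ca, the catalytic subunit of calcineurin, at -0.39 ± 0.12 (adjusted p = 0.0858). Ppp3ca ranged from 792 to 1426 CPM in WT and from 575 to 1086 in zQ175, with the lowest value again in zQ175 replicate 1, a pair that did not pass alone (-0.27 ± 0.16, adjusted p = 0.461). It ranged from 1112 to 1421 CPM in CK2a'(+/-) and from 757.5 to 994 in zQ175:CK2a'(+/-), which did not overlap (-0.51 ± 0.18, adjusted p = 0.323). Its averaged call was lost under 9 of the 18 libraries left out in turn (adjusted p = 0.104 to 0.284). The call was also lost with the cortical marker sum as a covariate (-0.32, adjusted p = 0.273) and with a robust fit (-0.39, adjusted p = 0.129). In the same averaged comparison 9 of the 12 striatal projection neuron markers fell, and their part in the Ppp3ca result was not tested.

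Of 12 other microtubule-associated genes, 2 rose and 1 fell in the averaged zQ175 effect. Stmn4, a stathmin that destabilizes microtubules, read 152, 118, 158, 159.6 and 163.5 CPM in WT, 125, 118, 121, 120.0 and 106 in zQ175, 125, 151 and 158 in CK2a'(+/-), and 125, 99.1, 128, 118.5 and 122 in zQ175:CK2a'(+/-). All but WT replicate 2 of the WT libraries lay above all zQ175 libraries, the same split as in the ribosomal protein sum and the short-gene contrast given for Park7. In the averaged effect 4 of 8 oligodendrocyte markers fell, and the part of these measures in the Stmn4 result was not tested. The averaged log2 fold change was -0.32 ± 0.07 (adjusted p = 0.0212), and the call held with each of the 18 libraries left out. In zQ175 against WT alone Stmn4 was at -0.35 ± 0.09 (adjusted p = 0.104), and 0 of the 12 genes passed there (6 at an unadjusted p under 0.05, 3 called by DESeq2).

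Map2, the dendritic counterpart of tau, rose by the averaged zQ175 effect. It read 1212, 1325, 1046, 1187 and 1172 CPM in WT and 1324, 1451, 1310, 1304 and 1494 in zQ175, against 1132, 1073 and 1204 in CK2a'(+/-) and 1424, 1278, 1302, 1374 and 1245 in zQ175:CK2a'(+/-). The CK2a'(+/-) and zQ175:CK2a'(+/-) mice did not overlap, as for 8.34% of all genes tested, and 1 WT library lay within the zQ175 range. The averaged log2 fold change was 0.22 ± 0.06 (adjusted p = 0.0412), and it was lost only without CK2a'(+/-) replicate 2 among the libraries left out (adjusted p = 0.116). Dcx, which encodes doublecortin of migrating neuroblasts, rose by 0.44 ± 0.12 in the averaged effect (adjusted p = 0.0535). It stood at 18.6 ± 3.96 CPM (SD, n = 5) in WT and 23.8 ± 4.02 (n = 5) in zQ175, and at 15.8 ± 3.28 (n = 3) in CK2a'(+/-) and 22.6 ± 2.56 (n = 5) in zQ175:CK2a'(+/-). Between zQ175 and WT alone Dcx did not pass (0.35 ± 0.15, adjusted p = 0.311), and the averaged call was lost without CK2a'(+/-) replicate 2 or 3 (adjusted p = 0.107 to 0.157).

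App, on chromosome 16 (GRCm38, 84949685 to 85173766, minus strand), was the steadiest member. It read 1384, 1420, 1403, 1442 and 1383 CPM in WT, 1408, 1253, 1388, 1386 and 1317 in zQ175, 1341, 1371 and 1366 in CK2a'(+/-), and 1354, 1250, 1357, 1266 and 1347 in zQ175:CK2a'(+/-). All 5 zQ175:CK2a'(+/-) libraries and all 3 CK2a'(+/-) libraries lay below the lowest WT library. Only 0.0143% of the genes tested had a smaller spread within genotypes than the 0.05 of App on the log2 CPM scale.

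App was the 1 of 8 members without overlap in each of the comparisons of zQ175:CK2a'(+/-) and of CK2a'(+/-) with WT, where 1.84% and 3.20% of all genes tested did not overlap. These comparisons share the WT mice. The exact two-sided permutation p was 0.00794 for zQ175:CK2a'(+/-) and 0.0357 for CK2a'(+/-), each the smallest that the numbers of mice allow and neither corrected for the 40 such tests run. With DESeq2 size factors in place of TMM the CK2a'(+/-) and WT ranges overlapped, and the zQ175:CK2a'(+/-) and WT ranges did not. The edgeR difference was small: -0.10 ± 0.06 on the log2 scale for zQ175:CK2a'(+/-) (adjusted p = 0.643), with a 95% interval from -14.0% to 1.62%, and -0.05 ± 0.07 for CK2a'(+/-) (adjusted p = 0.999).

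The 24 genes of the APP family, its adaptors and its processing enzymes stayed without a call in all 7 comparisons (23 tested). Secretases such as Bace1, Adam10 and the presenilins are among them. Of the 23, 4 had an unadjusted p under 0.05 in zQ175 against WT and DESeq2 called 0. The smallest p there was that of Apba2, a neuronal adaptor of the App tail, at a log2 fold change of 0.26 ± 0.09 (adjusted p = 0.206). The median log2 fold change of the list was -0.0036, beside 0.0042 over all genes tested.

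Prnp, on chromosome 2 (GRCm38, 131909928 to 131938429, plus strand), which encodes the membrane-anchored prion protein, overlapped between all genotypes. It read 157, 139, 165, 156.5 and 177.5 CPM in WT, 188, 141, 150.3, 146 and 166 in zQ175, 153, 168 and 153 in CK2a'(+/-), and 158, 129, 158, 153 and 161 in zQ175:CK2a'(+/-). The highest value was that of zQ175 replicate 1 and the lowest that of zQ175:CK2a'(+/-) replicate 2. The fold change in zQ175 against WT was -0.01 ± 0.09 on the log2 scale (adjusted p = 0.978), and -0.08 without zQ175 replicate 1 (adjusted p = 0.753). In zQ175:CK2a'(+/-) against WT it was -0.07 ± 0.09 (adjusted p = 0.885), and -0.02 without zQ175:CK2a'(+/-) replicate 2 (adjusted p = 0.985).

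Of 7 genes of the prion protein family and its partners, 6 were tested, and 1 rose in zQ175 against WT. Sprn, which encodes the neuronal prion-like protein Shadoo, read 24.5, 29.0, 26.1, 30.8 and 32.0 CPM in WT and 44.8, 31.9, 40.8, 32.8 and 56.9 in zQ175. The ranges met at their edges, with the lowest zQ175 library just under the highest WT library. The log2 fold change was 0.54 ± 0.13 (adjusted p = 0.0819). In zQ175:CK2a'(+/-), which carry the same zQ175 allele, Sprn read 28.1 to 35.6 CPM and did not pass against WT (0.17 ± 0.13, adjusted p = 0.770), and the interaction did not pass (-0.47 ± 0.20, adjusted p = 0.916). Without WT replicate 1 or 3, zQ175 replicate 1, 3 or 5, CK2a'(+/-) replicate 2 or zQ175:CK2a'(+/-) replicate 1 or 3 the adjusted p was 0.102 to 0.205. With the cortical projection neuron markers, whose sum was 138 to 212 CPM in WT and 183 to 431 in zQ175, as a covariate the fold change was 0.16 (adjusted p = 0.741). The call was also lost with the Xist level as a covariate (0.48, adjusted p = 0.120) and with only the groups compared (adjusted p = 0.189). The zQ175 libraries with Xist at 9.95 or more, replicates 2 and 4, read 31.9 and 32.8 CPM. Sprn was highest in the library with the highest cortical sum, zQ175 replicate 5.

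In the averaged zQ175 effect the gene of this list that passed was Rpsa, a ribosomal protein and laminin receptor reported to bind the prion protein, at -0.23 ± 0.07 (adjusted p = 0.0716). Rpsa stood at 131 ± 10.9 CPM (SD, n = 5) in WT and 104.5 ± 11.5 (n = 5) in zQ175, and at 115 ± 10.6 (n = 3) in CK2a'(+/-) and 105.5 ± 9.13 (n = 5) in zQ175:CK2a'(+/-), which overlapped. Its call was lost with the cortical marker sum as a covariate (-0.17, adjusted p = 0.266) and without WT replicate 3, CK2a'(+/-) replicate 2 or 3, or zQ175:CK2a'(+/-) replicate 3 or 5 (adjusted p = 0.106 to 0.254). The ribosomal protein sum given for Park7, which includes Rpsa itself, was lower in zQ175 than in 4 of 5 WT libraries. The part of the other ribosomal protein genes in the Rpsa result was not tested. Rpsa has many processed copies in the genome, so its counts are uncertain.

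Tardbp, on chromosome 4 (GRCm38, 148612382 to 148627019, minus strand), encodes TDP-43, a splicing regulator. It ranged from 122 to 147 CPM in WT, 129.8 to 155 in zQ175, 127 to 140.1 in CK2a'(+/-) and 120.1 to 153 in zQ175:CK2a'(+/-). The genotypes overlapped. The difference of zQ175 from WT was 0.03 ± 0.08 on the log2 scale (adjusted p = 0.912), with an interval from -8.74% to 13.75%, and its spread within genotypes (0.11) was below that of all but 5.50% of the genes tested. None of 15 tested RNA-binding proteins of cytoplasmic granules, such as Tia1 and G3bp1, passed in any comparison, with 3 of 15 at an unadjusted p under 0.05 in zQ175 against WT and 0 called by DESeq2. Tia1 had the smallest p there, at a log2 fold change of 0.23 ± 0.08 (adjusted p = 0.208).

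Atxn1, on chromosome 13 (GRCm38, 45549755 to 45965008, minus strand), encodes a transcriptional corepressor. It read 236, 312, 227, 205 and 201 CPM in WT, 228, 258, 224, 242 and 212 in zQ175, 264, 243 and 244.5 in CK2a'(+/-), and 225, 264, 217, 220.3 and 229 in zQ175:CK2a'(+/-). WT replicate 2 was the highest of all 18 libraries, and the genotypes overlapped. The log2 fold change in CK2a'(+/-) against WT was 0.09 ± 0.11 (adjusted p = 0.999), and 0.21 without WT replicate 2 (adjusted p = 0.533). In zQ175 against WT it was -0.02 ± 0.10 (adjusted p = 0.956), and 0.09 without that library (adjusted p = 0.632).

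Atxn3, on chromosome 12 (GRCm38, 101918901 to 101958246, minus strand), encodes a deubiquitinase. It ranged from 24.1 to 37.1 CPM in WT, 28.2 to 37.8 in zQ175, 27.5 to 36.2 in CK2a'(+/-) and 29.9 to 36.8 in zQ175:CK2a'(+/-), with all genotypes overlapping. Its log2 fold change in zQ175 against WT was 0.07 ± 0.12 (adjusted p = 0.845), with an interval from -11.9% to 25.5%. Of 18 ataxin relatives, ataxin partners and other polyglutamine disease genes, 0 passed in zQ175 against WT (3 at an unadjusted p under 0.05, 1 called by DESeq2).

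**Figure D3:**
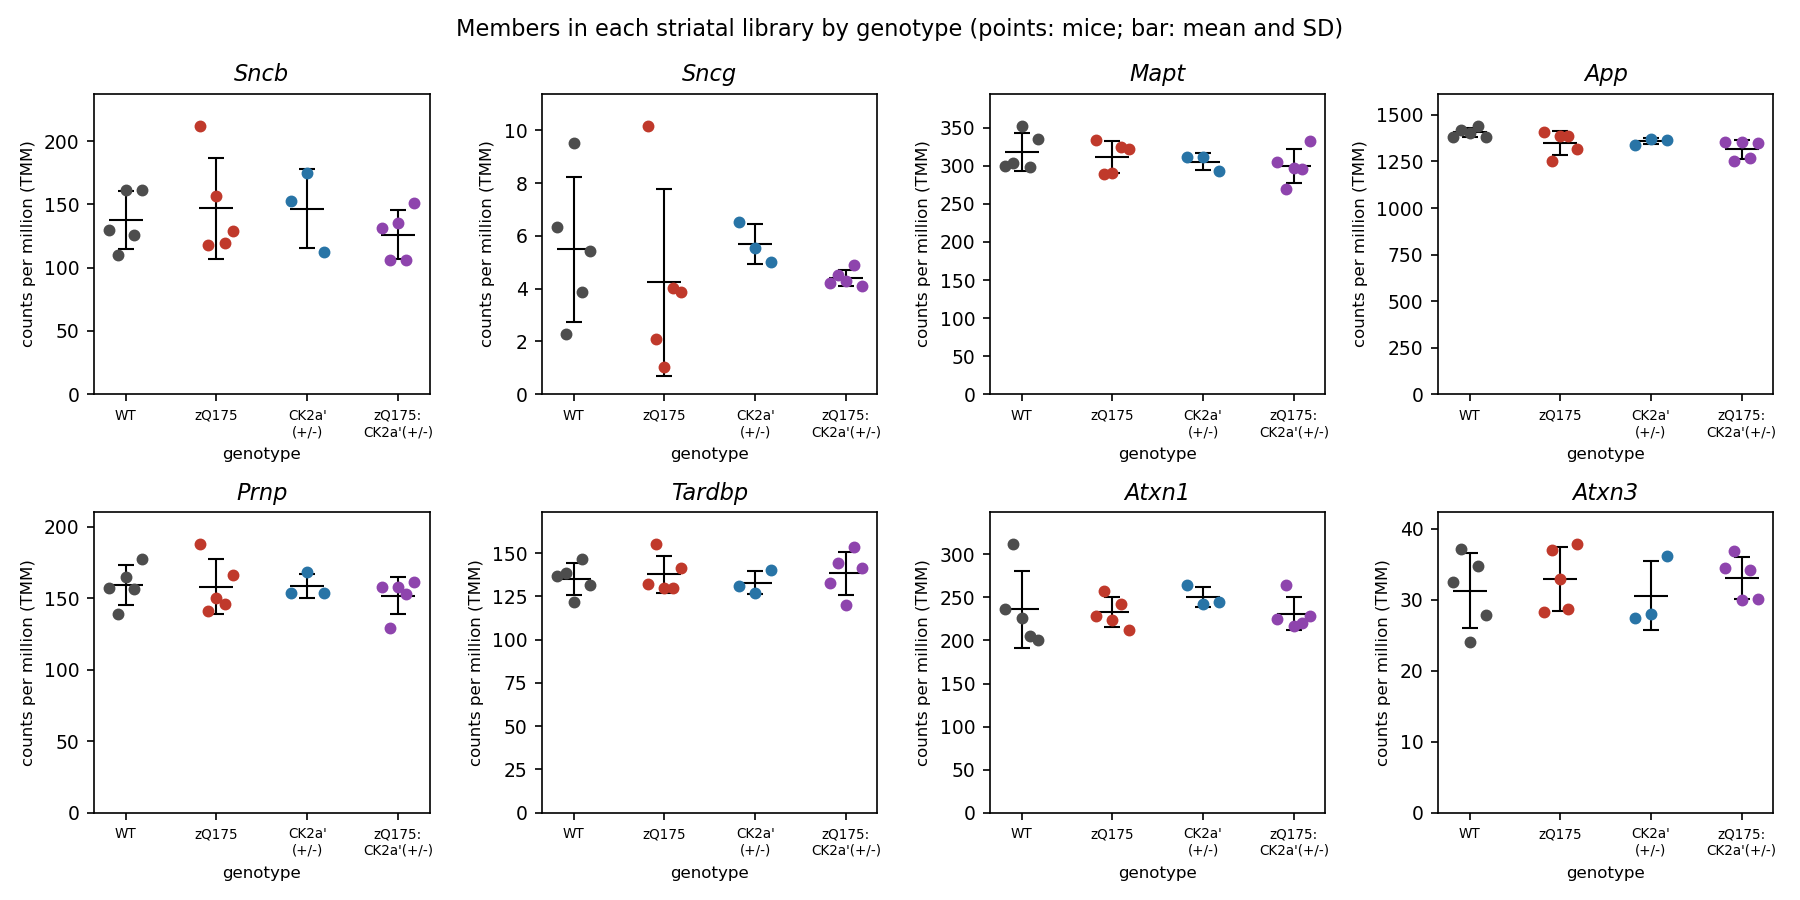
CPM of each member by genotype, with 1 point per mouse and bars for the mean and SD; every axis starts at 0. Genotypes overlap in all panels except App, where the 8 libraries with 1 Csnk2a2 allele lie below the lowest WT library, and Sncg, where the CK2a'(+/-) points (5.00 to 6.51) lie above the zQ175:CK2a'(+/-) points (4.09 to 4.88).

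Over the 7 lists together, 107 of 110 genes were tested. In zQ175 against WT 2 of 107 passed (1.87%, beside 1.10% of all genes tested), 1 of them higher and 1 lower (0.387% and 0.712% of all genes), 25 had an unadjusted p under 0.05 (13.9% of all genes did), and DESeq2 called 8. In the averaged zQ175 effect 7 of 107 passed (6.54%, beside 4.90%), 3 higher and 4 lower (2.11% and 2.78% of all genes), and 27 had an unadjusted p under 0.05 (16.2% of all genes did) with 13 called by DESeq2. In the other 5 comparisons edgeR called 0 of 107. Unadjusted p values under 0.05 numbered 8 in zQ175:CK2a'(+/-) against WT, 2 in CK2a'(+/-) against WT, 6 in zQ175 against zQ175:CK2a'(+/-), 15 in zQ175:CK2a'(+/-) against CK2a'(+/-) and 5 for the interaction, where 9.13%, 4.48%, 6.27%, 9.19% and 5.39% of all genes had one, and DESeq2 called 2 in the first of these and 0 in the rest.

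**Figure D4:**
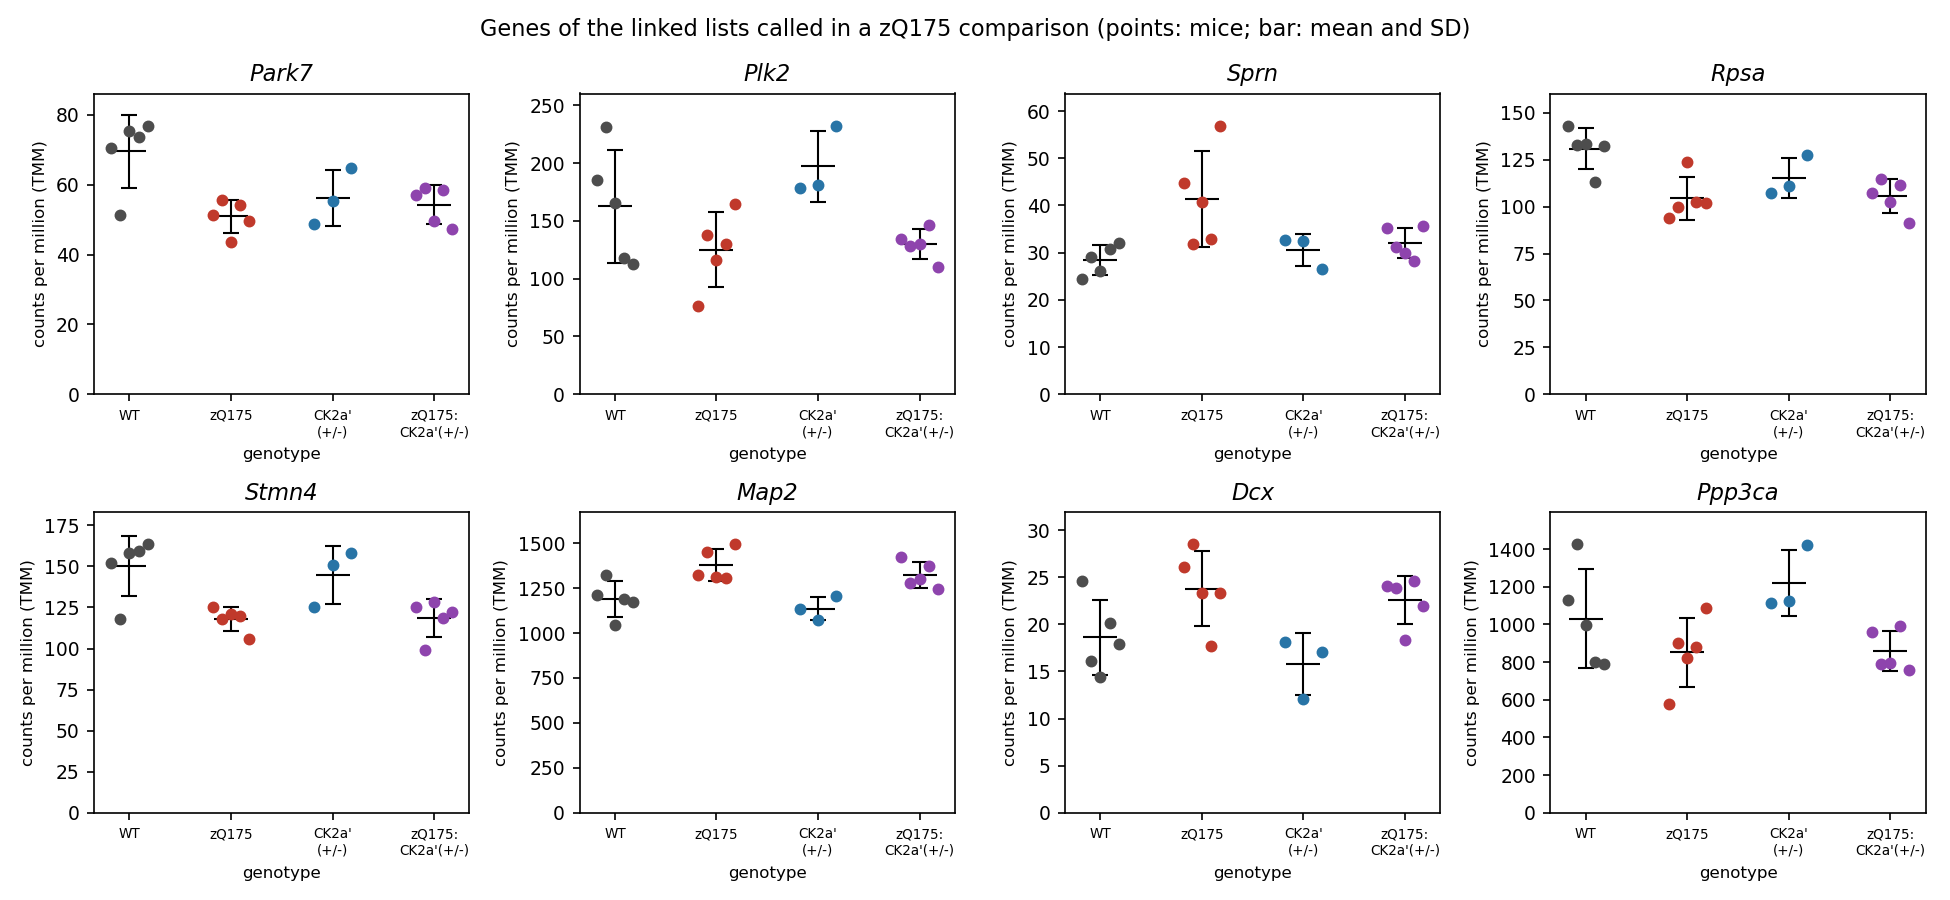
CPM by genotype of 8 genes of the linked lists that passed in zQ175 against WT or in the averaged zQ175 effect, with 1 point per mouse and bars for the mean and SD; every axis starts at 0. Stmn4, Park7 and Rpsa have lower means and Map2, Dcx and Sprn higher means in zQ175 than in WT, and WT replicate 2 is the low WT point of Park7 (51.2) and Stmn4 (118).

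Some pairs of members varied together, or in opposite directions, between mice. Across the 18 libraries, 10 of the 28 pairs of members had a Pearson r of log2 CPM with an adjusted permutation p under 0.05, 4 positive and 6 negative, and 8 of the 10 also passed by Spearman's rho. Sncb, Mapt and Prnp varied together. For Sncb and Prnp r was 0.80 (rho 0.79, permutation p = 6.0e-05, adjusted p = 0.00168), for Mapt and Prnp 0.72 (rho 0.73, permutation p = 0.00059, adjusted p = 0.00469) and for Sncb and Mapt 0.63 (rho 0.65, permutation p = 0.00498, adjusted p = 0.0199). Without the 2 libraries farthest from the median of the first gene of each pair r was 0.69, 0.65 and 0.63.

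Tardbp and Atxn3, whose products act in the nucleus and in protein turnover, formed the other positive pair, with r = 0.73 (rho 0.74, permutation p = 0.0006, adjusted p = 0.00469) and 0.73 without 2 libraries. The negative pairs joined these genes or Atxn1 with the synucleins, Mapt or Prnp. Atxn3 had r = -0.72 with Sncb (rho -0.76, adjusted permutation p = 0.00469), -0.72 with Mapt (rho -0.62, adjusted permutation p = 0.00487), -0.57 with Sncg (rho -0.68, adjusted permutation p = 0.0384) and -0.56 with Prnp (rho -0.53, adjusted permutation p = 0.0411). The last of these did not hold without the 2 libraries farthest from the Prnp median (r = -0.48, permutation p = 0.0602). Tardbp had r = -0.58 with Sncb (rho -0.69, adjusted permutation p = 0.0372), and Atxn1 had r = -0.63 with Prnp (rho -0.55, adjusted permutation p = 0.0199). App had no pair that passed. With each value taken as its deviation from its genotype's mean, r was 0.80 for Sncb and Prnp, 0.71 for Tardbp and Atxn3 and -0.75 for Sncb and Atxn3, close to the values over all libraries. All of these values share the libraries, their depth and their scaling. How often pairs of other genes reach such values in these libraries was not examined.

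**Figure D5:**
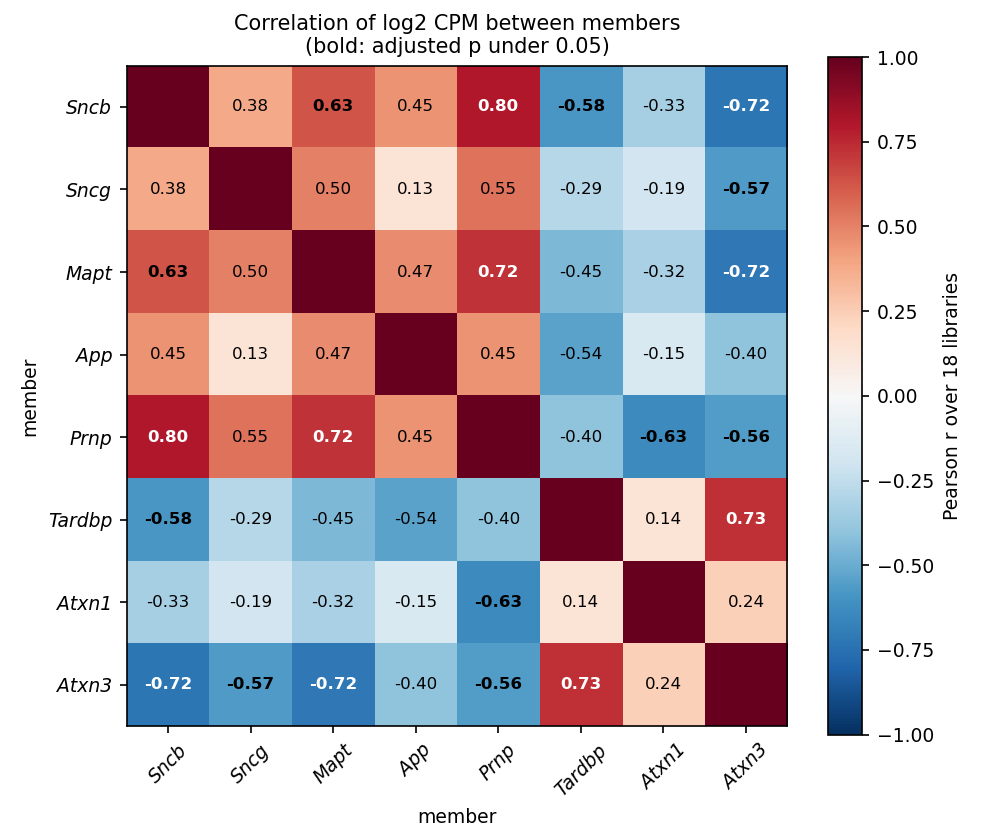
Pearson r of log2 CPM between each pair of members over 18 libraries, red for positive and blue for negative, with bold numbers where the adjusted permutation p is under 0.05. Sncb, Mapt and Prnp form a positive block (0.63 to 0.80), and Atxn3 is negative with each of them (-0.72 to -0.56).

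The same 3 genes followed the summed level of 8 genes shared by most neurons (Rbfox3, Snap25, Syt1, Eno2, Nefl, Nefm, Tubb3 and Stmn2). That sum ranged from 2771 CPM in zQ175:CK2a'(+/-) replicate 2 to 3700 in zQ175 replicate 1. Of 40 relations of the members with 5 marker sums, 3 passed: Prnp with r = 0.82 (rho 0.77, adjusted permutation p = 0.0044), Sncb with 0.76 (rho 0.67, adjusted permutation p = 0.0048) and Mapt with 0.67 (rho 0.67, adjusted permutation p = 0.0281). Without the 2 libraries just named r was 0.59 for Prnp and 0.56 for Sncb, and 0.49 for Mapt, which no longer passed (permutation p = 0.0525). Without zQ175 replicate 1, 7 of the 40 relations passed. With all libraries no member passed with the sums for striatal projection neurons, cortical projection neurons, oligodendrocytes or astrocytes. The sum of 6 thalamic markers was related to the 8 members after the data were seen. Sncb followed it with r = 0.87 (rho 0.86, permutation p = 1e-05, the smallest that 100000 permutations can give, adjusted over the 8 relations 8e-05). Without CK2a'(+/-) replicate 3 and zQ175:CK2a'(+/-) replicate 4, which lay farthest from the median of the log2 sum, r was 0.85. That check kept zQ175 replicate 1, which had the highest thalamic sum (1002 CPM) and the highest Sncb level. Within genotypes r was 0.87. Atxn3 ran against the thalamic sum (r = -0.76, rho -0.72, adjusted permutation p = 0.00136, and -0.76 without CK2a'(+/-) replicate 3 and zQ175:CK2a'(+/-) replicate 4). Prnp (r = 0.53, rho 0.53) and Tardbp (r = -0.53, rho -0.57) both had an adjusted permutation p of 0.0474, and without those libraries r was 0.59 for Prnp and -0.43 for Tardbp, which no longer passed (permutation p = 0.0967). Mapt, which varied with Sncb and Prnp, did not pass with the thalamic sum (r = 0.49, rho 0.48, adjusted permutation p = 0.0619). Thalamic markers thus moved with Sncb and Prnp and against Atxn3, and their part in the pairs of members was not tested.

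For Atxn1 and the striatal sum r was 0.56 (rho 0.58, permutation p = 0.0161, adjusted p = 0.112), and 0.36 without the 2 libraries farthest from the median of that sum.

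Among all genes tested, those whose log2 CPM most resembled a member's over the 18 libraries were ranked by Pearson r, as a description with no test. Sncb was most like Nr2f1 (0.95), a transcription factor of neuronal patterning, followed by Zfp423 (0.94) and Ccdc136 (0.92). Prnp was most like Ctps2 (0.87), Pth1r (0.84) and Bok (0.84), and App was most like Tpd52l1 (0.87), Vps9d1 (0.85) and Zrsr1 (0.78). The nearest to Atxn1 were Fzd3 (0.86), Mbnl2 (0.85) and Dgki (0.83), and to Atxn3 Tra2b (0.84), Gm12183 (0.83) and Lin7c (0.82). Tardbp was nearest to Otogl (0.84), mt-Nd4 (0.82) and mt-Cytb (0.82), 2 of them mitochondrial. Mapt was nearest to Pde4a (0.80), Nans (0.80) and Klc2 (0.78). For Sncg the nearest were AC133525.2 (0.80), 1500009C09Rik (0.80) and Glis1 (0.78). The values are the highest among all 20914 genes tested, and no function in common is implied.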

How the data were processed

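RNA-seq counts of 18 striatal libraries were analysed. Per the labels and the methods of the study, the authors used Trimmomatic for trimming and HISAT2 2.1.0 for alignment to GRCm38, removed duplicated mappings and alignments of low quality, and counted reads per gene with Subread 1.6.2. The deposited values are raw counts with no normalization. The deposited gene lengths, an other kind of value, are the summed exon lengths in bases. Gene spans in the table equalled those of GENCODE M21, and 55154 identifiers matched a symbol.

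Counts were tested in R 4.3.3 with edgeR 4.0.16 (quasi-likelihood test, TMM, filterByExpr, 1 fit of 18 libraries, genotype as the only factor) and, as an alternative, DESeq2 1.42.0. A call is a Benjamini-Hochberg adjusted p (FDR) under 0.1 over all genes tested. The SE is the size of the log2 fold change over the root of its F statistic, and intervals are 95%. Log2 CPM used a prior count of 2. Levels per length are TMM-scaled CPM over exon kb. Correlations used 100000 permutations. Permutation p values adjusted by Benjamini-Hochberg cover the 28 pairs of members or the 40 marker relations. Coding sequences were aligned with Biopython 1.88. The fits were checked on simulated counts with 200 genes shifted by 1 on the log2 scale.

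Named genes are the 8 members, Csnk2a2, per list and comparison the called genes with the 3 smallest p (where none was called, the smallest), the 3 genes most like each member, and markers beside a result. A gene counted in the list totals that is not named is not reported here. The members, lists and tests were chosen with earlier results of these data known. Each library is a separate mouse, and neither sex nor batch is in the labels. Ide and Celf1, known to be widely expressed, held almost no counts in any library and were not tested, for a reason not given in the sources used here. The exact tests with DESeq2 size factors and the relations with library features and with the thalamic sum were added after seeing the data. The number of mice limits the precision.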

Additional observations from a re-analysis of the deposited data

Results flagged for a closer look

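In groups of 4 to 10 mice, a library counts as far from its group when its gap to the nearest other value takes up most of the group's range (Dixon's test at 95%). Over 17 genes and 51 groups of 5 mice, 4 values did so, and chance marks about 1 in 20 groups. In zQ175:CK2a'(+/-) replicate 2, Prnp was low at 129.2 CPM, with the other 4 mice at 153 to 161, and Atxn1 was high at 264.2 CPM, with the others at 217 to 229. This library also had the highest choroid plexus sum (3085 CPM) and the lowest pan-neuronal sum (2771 CPM). In WT replicate 2, Park7 was low at 51.22 CPM, with the others at 70.6 to 76.9, and Stmn4 was low at 118.1 CPM, with the others at 152 to 163.5. This library also had the highest striatal marker sum (7628 CPM) and the highest Atxn1 level of all libraries. Its ribosomal protein sum was 12.08 on the log2 CPM scale, with the other WT mice at 12.40 to 12.50, and its short-gene contrast was -0.05, with the others at 0.13 to 0.24. The part of these measures in the values was not tested.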

How the results depend on the processing

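The count of 0 members called was the same under all 28 settings (18 libraries left out in turn and 10 others), with a lowest adjusted p of 0.170 (Sncg, averaged zQ175 effect, without zQ175 replicate 1). Of 1552 fold changes of members under these settings, 95 had the other sign, all uncalled. Counts of list genes moved more. In zQ175 against WT (2 genes) the count was 8 with DESeq2, 5 with no filter, 5 with a robust fit, 1 with the replicate block, 1 with the Xist level as covariate, and 0 with only the groups compared, with the cortical marker sum as covariate or at FDR 0.05; it was 0 to 6 with 1 library left out, 0 without WT replicate 1 or 3 or zQ175 replicate 1 or 5 and 6 without WT replicate 2. In the averaged zQ175 effect (7 genes) it was 13 with DESeq2, 2 with the replicate block, 11 with Xist, 3 with the cortical sum, 2 at FDR 0.05 and 2 to 10 with 1 library left out, lowest without CK2a'(+/-) replicate 3. In zQ175:CK2a'(+/-) against WT (0 genes) it was 2 with DESeq2 and 0 to 2 with 1 library left out. In zQ175:CK2a'(+/-) against CK2a'(+/-) (0 genes) it was 2 with no filter and 3 with only the groups compared. Correlations among members that passed numbered 10, and 6 to 12 with 1 library left out (6 without WT replicate 5, 8 without zQ175 replicate 1) and 12 and 13 with other scalings; those with marker sums numbered 3, and 2 to 7 (7 without zQ175 replicate 1). The number of separate steps in the order of levels was 4 under every scaling and library left out. The cause of these shifts was not tested.

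Replicate numbers did not pair the mice: of 24 same-numbered pairs, 5 had deviations correlated above 0.1 (range -0.37 to 0.30), and the block, with 0 members called, changed no call of a member. Under the block Park7 (adjusted p = 0.133), Plk2 (0.164), Ppp3ca (0.203), Map2 (0.106) and Rpsa (0.163) were not called. Relations of members with library features (40, added after seeing the data) gave 0 at an adjusted p under 0.05.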
